A study of Mus musculus with 24 samples.

Results

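The 35 genes described here mark microglia and their phagocytic machinery. They were taken as a list of gene symbols, and all 35 are among the 18240 genes of the deposited table. They fall into 13 homeostatic genes, 4 complement genes, 5 lysosomal genes, 10 phagocytic and immune receptor genes and 3 transcription factor genes. Microglia are the resident macrophages of the brain. In the undisturbed cortex they survey the tissue through nucleotide and chemokine receptors, remove dead cells and tag and engulf synapses with the help of complement, and digest what they take up in lysosomes. Their identity depends on signals through the receptor encoded by Csf1r and on a small set of transcription factors, and the homeostatic genes are the ones known to fall when microglia become activated.

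RNA was sequenced in bulk from the prefrontal cortex of C57BL/6J mice at postnatal day 40, in 24 libraries with 6 in each of 4 arms, 3 from females and 3 from males. Wild-type mice (WT) received vehicle. Mice heterozygous for the Dyrk1a allele I48X (HT) received vehicle, the antidepressant fluoxetine, which blocks serotonin reuptake, or lithium, which is used against bipolar disorder. Every drug-treated library is HT, so drug effects are seen on the mutant background alone, and neither dose nor length of treatment is stated in the labels. Nothing says that the libraries came from separate animals. The p-values therefore measure only the spread among these 24 samples, and part of it may be technical. Libraries are referred to as, for example, WT vehicle female 1.

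Levels are read counts divided by a size factor of the library, from 24133344 to 35940460 reads recovered per library. Dyrk1a, the gene that carries the allele, stood between 2088 and 2349 in WT vehicle and between 2254 and 2431 in HT vehicle, and its level therefore gave no check of the genotype labels. The dissections differ. A score of 12 genes of the olfactory bulb, none a member, ran from -2.78 in HT lithium female 2 to 2.565 in HT fluoxetine male 1 on the log2 scale, and the 6 highest libraries are called bulb-high (WT vehicle female 2, HT vehicle female 2, HT vehicle male 3, HT fluoxetine female 1, HT fluoxetine male 1 and HT lithium male 1). A further 4 had the highest Drd2, a striatal gene, or Ttr, a choroid plexus gene (WT vehicle female 1, HT vehicle female 1, HT vehicle male 1 and HT fluoxetine female 2). The labels also name a batch: P40_L1 holds 17 libraries and P40_L2 holds 7, which are all 6 lithium libraries and HT fluoxetine female 3.

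Microglial genes were present in every library. Per kilobase of exon, the members' mean levels over the 24 libraries spanned 70.9-fold. The highest belonged to the lysosomal protease genes Lgmn (legumain, 1291 normalised reads per kilobase) and Ctss (cathepsin S, 1040) and to the genes of the complement C1q subunits, C1qb (853), C1qa (833) and C1qc (576). The homeostatic genes had a median of 170.1 per kilobase, led by Csf1r, the gene of the receptor that microglia need to survive, at 451, the ADP receptor gene P2ry12 at 389 and Fcrls, an Fc receptor-like gene, at 327. The lowest were the transcription factor genes Irf8 at 18.2 and Spi1, which encodes PU.1, at 31.3, and the UDP receptor gene P2ry6 at 19.4. Neighbours in this order, such as C1qb and C1qa or Irf8 and P2ry6, lie within each other's range over the libraries.

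**Figure D1:**
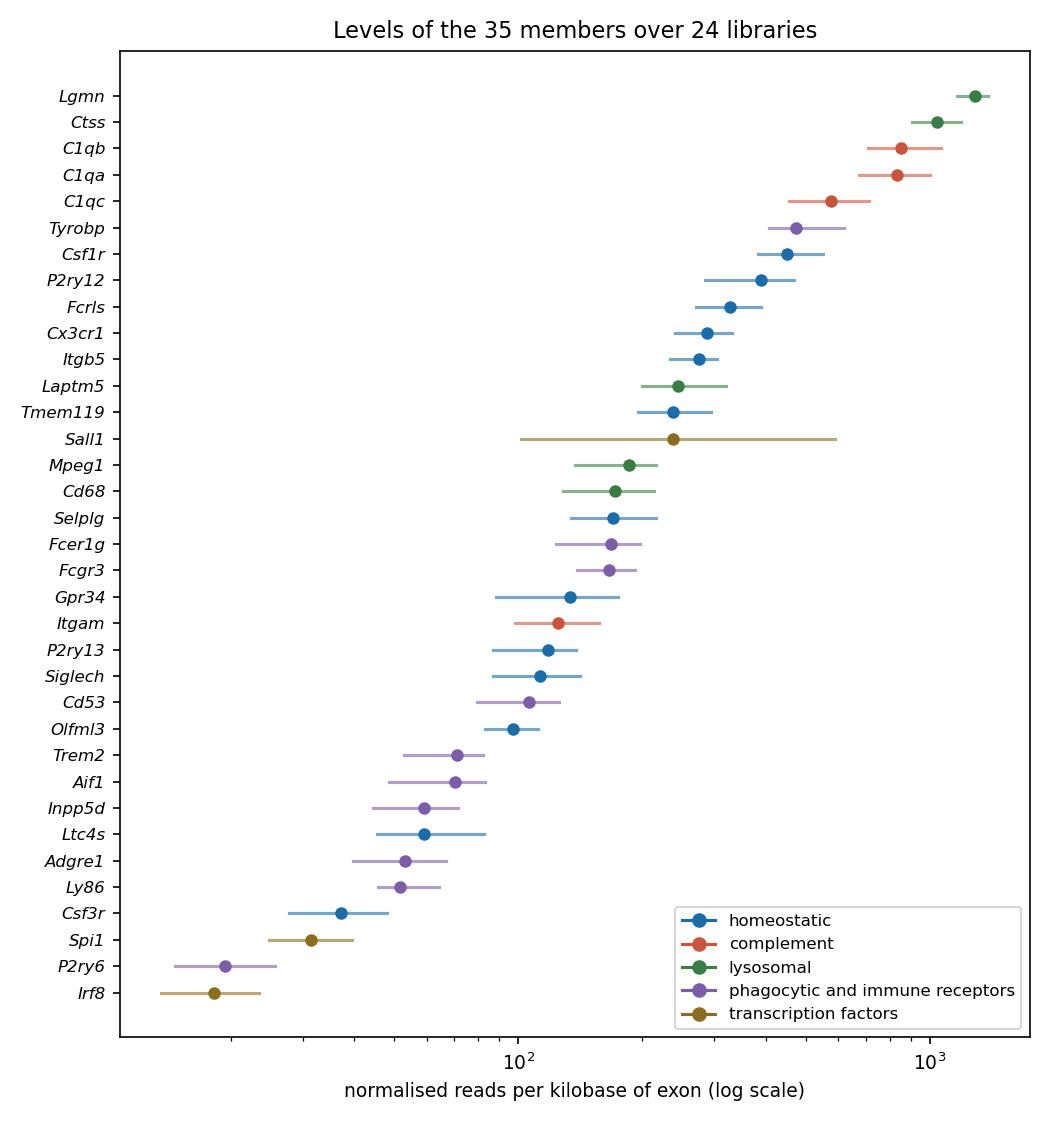
Mean level of each member per kilobase of exon on a log axis (points) with the lowest and highest of 24 libraries (lines), coloured by group. Lgmn at 1291 and Irf8 at 18.2 are the ends of the order, and Sall1 has by far the widest line, 5.78-fold from its lowest to its highest library.

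The members were steady within a group. The spread between libraries of one arm and sex had a median SD of 0.15 on the log2 scale over the members, against 0.18 over all 16825 genes tested. Lgmn was the steadiest at 0.065, from 2709 to 3229 in all 24 libraries. Fcrls at 0.088 and Ctss at 0.090 followed. The most variable was Sall1, which encodes a repressor that keeps microglial identity, at 0.98. Low levels add counting error: P2ry6 had as few as 40 reads in a library and Ltc4s, the leukotriene C4 synthase gene, 43.

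RefSeq promoters, 300 bases that end 50 bases after a gene's start, were found for 26 members, with 31 promoters, on GRCm38.p6. Those of Adgre1, C1qa, Csf1r, Gpr34, P2ry6, Selplg, Spi1, Tmem119 and Tyrobp were not among them. The motif GAGGAAGT, searched on both strands, is a form bound by PU.1, the product of the member Spi1, and it was in 4 of the 26 (15.4%) against 3.69% of 27025 genes. A composite of ETS and IRF half-sites, GGAANNGAA, was in 2 of 26 (7.7%, Ctss and Cd68) against 9.42% of all, and the Ctss copy overlaps the first motif. The 4 stretches that hold GAGGAAGT are shown because 3 of them belong to genes the results below return to, C1qc, Ctss and Inpp5d, the last being the gene of the lipid phosphatase SHIP. Capitals mark the motif, which reads ACTTCCTC where it is on the other strand. For C1qc and Inpp5d the 250 bases before the start site are printed, and for Ctss and Cd53, a tetraspanin gene, 30 bases around it.
C1qc (GRCm38, chr4:136892915-136893164, minus strand): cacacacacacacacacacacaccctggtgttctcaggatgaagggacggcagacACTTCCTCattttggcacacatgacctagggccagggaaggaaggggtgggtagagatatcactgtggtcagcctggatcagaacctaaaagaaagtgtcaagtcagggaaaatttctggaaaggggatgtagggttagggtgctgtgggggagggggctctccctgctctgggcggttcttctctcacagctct
Inpp5d (GRCm38, chr1:87620062-87620311, plus strand): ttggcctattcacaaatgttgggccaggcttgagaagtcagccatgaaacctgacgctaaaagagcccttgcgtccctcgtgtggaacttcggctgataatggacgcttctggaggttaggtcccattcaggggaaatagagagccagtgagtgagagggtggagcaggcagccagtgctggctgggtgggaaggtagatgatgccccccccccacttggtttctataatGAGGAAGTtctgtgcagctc
Ctss (GRCm38, chr3:95526771-95526800, plus strand): gaaatgaaagttcACTTCCTCattgtggat
Cd53 (GRCm38, chr3:106790135-106790164, minus strand): taagagagaacactcagtctcACTTCCTCa
The motif begins 195 bases before the start site in C1qc, 20 before it in Inpp5d and 2 before it in Ctss, and 6 bases after it in Cd53. A match of letters is a description and does not show binding.

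The first comparison asks whether the allele changes microglial transcripts on vehicle. In HT vehicle against WT vehicle libraries 30 of the 35 members were higher, where 48.7% of all genes were, with a median log2 fold change of 0.11 against -0.002 for all genes. No member passed the test (limma, Benjamini-Hochberg over 16825 genes, called at an adjusted p under 0.05), and neither did any other gene (0% called). At an unadjusted p under 0.05 stood 7 members, with 2.7% of all genes. edgeR and DESeq2 on the recovered reads also called 0 members and 0 genes, with the same count of 7. On data simulated for this comparison, the test recovered 59.7% of 67 genes changed 1.5-fold and 92.4% of 66 genes changed 2-fold. Of 67 genes given the smallest change simulated, which was below 1.5-fold, it recovered 29.9%. The members' differences all lay below 1.5-fold, from -0.129 to 0.349 on the log2 scale, so differences of their size can be missed.

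Of the homeostatic genes 12 of 13 were higher in HT vehicle, with a median of 0.12. Csf3r, the receptor gene for granulocyte colony-stimulating factor, had the smallest p of all members. It stood at 101, 100.2 and 147 in WT vehicle females, 117, 105 and 124 in WT vehicle males, 173, 135 and 134 in HT vehicle females and 136, 153 and 149.9 in HT vehicle males. All 6 HT libraries lay above the WT mean, and WT vehicle female 3 reached into their range. The difference was 0.35 ± 0.11 on the log2 scale (limma, unadjusted p = 0.00517, adjusted p = 1). P2ry13, a nucleotide receptor gene beside P2ry12 on chromosome 3, differed by 0.18 ± 0.083 and Fcrls by 0.12 ± 0.053. Among the textbook identity genes, Csf1r held 2451 ± 172 (SD, n = 6) in WT vehicle and 2658 ± 152 in HT vehicle (0.12 ± 0.061), Tmem119, a microglial membrane protein gene, 525 ± 26 and 579 ± 40.4 (0.14 ± 0.072), and the fractalkine receptor gene Cx3cr1 1275 ± 101 and 1359 ± 39.2 (0.095 ± 0.068). P2ry12 differed by 0.090 ± 0.11, the lysophosphatidylserine receptor gene Gpr34 by 0.18 ± 0.12, the lectin gene Siglech by 0.055 ± 0.10, the selectin ligand gene Selplg by 0.13 ± 0.097, the integrin gene Itgb5 by 0.036 ± 0.061 and Ltc4s by 0.038 ± 0.11. Olfml3, which encodes a secreted protein, was the 1 homeostatic gene on the other side, at -0.034 ± 0.069.

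The 4 complement genes were all higher, by a median of 0.11. C1qc, the gene of a C1q chain, stood at 1058, 933 and 1019 in WT vehicle females and 972, 878 and 1107 in males. In HT vehicle it stood at 1095, 1138 and 1242 in females and 1191, 996 and 1269 in males. All 6 HT libraries were above the WT mean, while HT vehicle male 2 and HT vehicle female 1 lay below the highest WT library (0.22 ± 0.078). The other chains, C1qb at 0.13 ± 0.088 and C1qa at 0.091 ± 0.084, and Itgam, a subunit of the complement receptor, at 0.042 ± 0.093 lay less than 1.5 SE from 0. Itgam shares 3450 exon bases on the same strand with Gm49368, so its reads are uncertain.

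The 5 lysosomal genes were also all higher, by a median of 0.091. Ctss stood at 1232, 1233 and 1303 in WT vehicle females and 1328, 1338 and 1623 in males, and at 1415, 1534 and 1506 in HT vehicle females and 1469, 1446 and 1552 in males (0.15 ± 0.053). WT vehicle male 3 was the highest of the 12, and the other 5 WT libraries lay below every HT library. Mpeg1, the gene of a pore-forming protein of phagosomes, differed by 0.15 ± 0.082, Cd68, a lysosomal glycoprotein gene, by 0.091 ± 0.084, Laptm5 by 0.055 ± 0.068 and Lgmn by 0.014 ± 0.042. The medians of 0.12, 0.11 and 0.091 for homeostatic, complement and lysosomal genes thus lay side by side, and the difference between the groups of genes was not tested.

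Among phagocytic and immune receptor genes 8 of 10 were higher, by a median of 0.11. Ly86, which encodes a secreted partner of a Toll-like receptor homologue, stood at 172, 177 and 173 in WT vehicle females, 172, 174 and 212 in WT vehicle males, 199, 218 and 209 in HT vehicle females and 197, 193 and 233 in HT vehicle males. The arms overlapped through WT vehicle male 3 alone, and the difference was 0.21 ± 0.069. Inpp5d differed by 0.22 ± 0.10, Cd53 by 0.013 ± 0.10 and P2ry6 by -0.13 ± 0.13. Trem2, the lipid-sensing receptor gene, differed by 0.11 ± 0.061, and Tyrobp, the gene of its signalling adaptor, by 0.003 ± 0.077. The Fc receptor genes stood at 0.17 ± 0.089 for Fcer1g and -0.005 ± 0.073 for Fcgr3, and the markers Aif1 and Adgre1 at 0.14 ± 0.092 and 0.11 ± 0.11. The transcription factor genes did not share a direction, with Irf8 at 0.13 ± 0.12, Spi1 at -0.053 ± 0.10 and Sall1 at -0.11 ± 0.52.

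**Figure D2:**
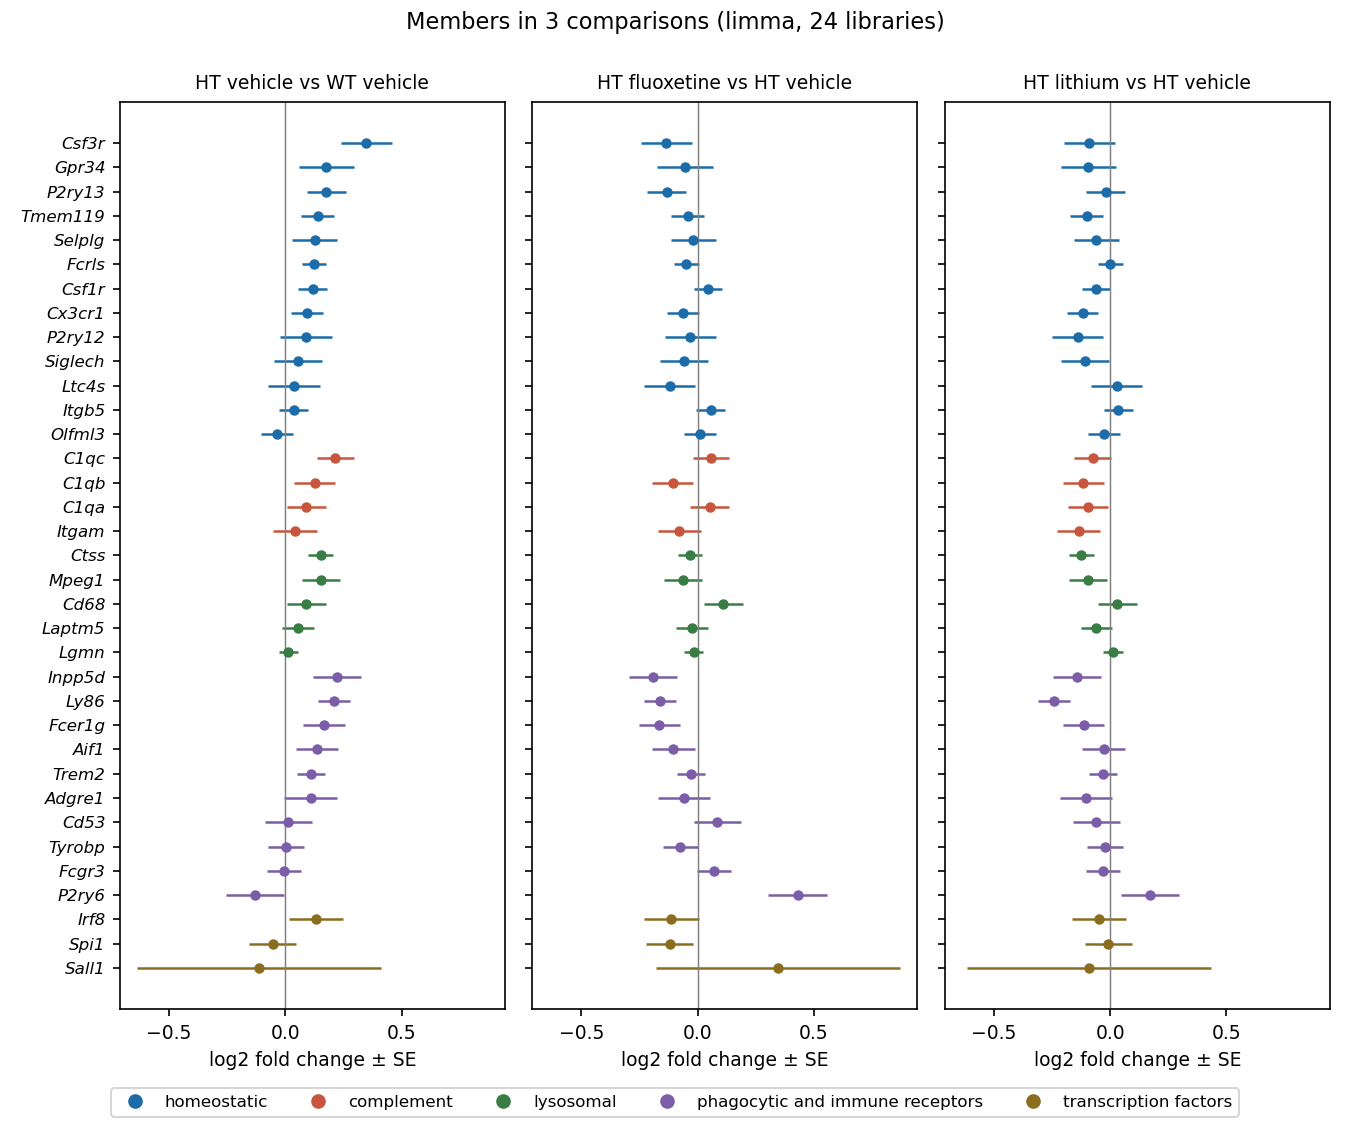
Log2 fold change ± SE (limma, 24 libraries) of the 35 members in 3 comparisons, coloured by group and ordered within a group by the first. Most points lie right of 0 for HT vehicle against WT vehicle (30 of 35) and left of it for lithium against vehicle (29 of 35), none passes the test, and the last 2 comparisons share the HT vehicle libraries with the first.

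Split by sex, the median genotype difference was 0.21 in females, with 31 of 35 members higher, and -0.004 in males, with 16 of 35 higher. The mean log2 deviation of the 35 members was -0.187, -0.122 and -0.029 in WT vehicle females 1, 2 and 3, and 0.025, 0.082 and 0.070 in HT vehicle females. In males it was -0.058, -0.004 and 0.11 in WT and 0.000, -0.026 and 0.11 in HT, so the female groups did not overlap and the male groups did. Every HT female library lay above every WT female library for 13 members, Cx3cr1, P2ry13, Tmem119, Fcrls, C1qb, C1qc, Ctss, Laptm5, Trem2, Tyrobp, Cd53, Ly86 and Irf8, which 4.32% of all genes also did. No member was lower in every HT female library, with 4.49% of all genes. In males every HT library lay above every WT library for Csf3r and Inpp5d, with 3.08% of all genes, and below for Trem2, with 2.5%.

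Fcrls shows the contrast: 632, 676 and 707 in WT females against 816, 796 and 907 in HT females, and 723, 811 and 776 in WT males against 696, 729.8 and 769 in HT males. HT libraries were the higher ones in females and not in males. The female difference was 0.32 ± 0.076, the male difference -0.074 ± 0.076, and the limma test of males minus females gave -0.40 ± 0.11 (unadjusted p = 0.00155, adjusted p = 0.996). Trem2 gave -0.39 ± 0.12, P2ry13 -0.40 ± 0.17, Mpeg1 -0.44 ± 0.16 and Tyrobp -0.35 ± 0.15 in this test, and no member passed it (0% of all genes called). At an unadjusted p under 0.05 it had 5 members, against 2.17% of all genes, and 5 of 35 were above 0, against 50.9% of all genes. By group the median female differences were 0.20 for homeostatic, 0.21 for complement and 0.15 for lysosomal genes, and the male ones -0.024, 0.031 and 0.013.

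The 4 groups had mean scores of -0.113 ± 0.079 (SD, n = 3) in WT vehicle females, 0.016 ± 0.086 in WT vehicle males, 0.059 ± 0.030 in HT vehicle females and 0.029 ± 0.074 in HT vehicle males. WT vehicle female 1 had the lowest score of all 24 libraries, and HT vehicle male 3, with 0.11, the highest. That top rank was narrow, since WT vehicle male 3 also stood at 0.11. The score includes Sall1, the most variable member, which stood at 2313 in HT vehicle male 3, a bulb-high library. The part of Sall1 in that rank was not tested. WT vehicle females 1 and 2 are also Drd2-high and bulb-high, and in females 12 of 12 bulb genes stood lower in HT, with a median log2 difference of -1.57, with inhibitory neuron genes at a median of -0.205 and excitatory neuron genes at 0.12. In males 11 of 11 striatal genes (median 0.465), 5 of 5 choroid plexus genes (0.717) and 10 of 12 bulb genes (0.275) stood higher in HT. Inhibitory neuron genes had a male median of 0.112 and excitatory neuron genes -0.187. The part of these genes in the result was not tested in either sex. Over both sexes the members' median was 0.090 without the 6 bulb-high libraries and 0.076 without the 4 Drd2- or Ttr-high ones. In bulk tissue fewer microglia and less RNA per cell cannot be told apart. Other microglial genes that are no members, 36 in all, stood higher for 31, with a median of 0.10, and for 35 of 36 in females.

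**Figure D3:**
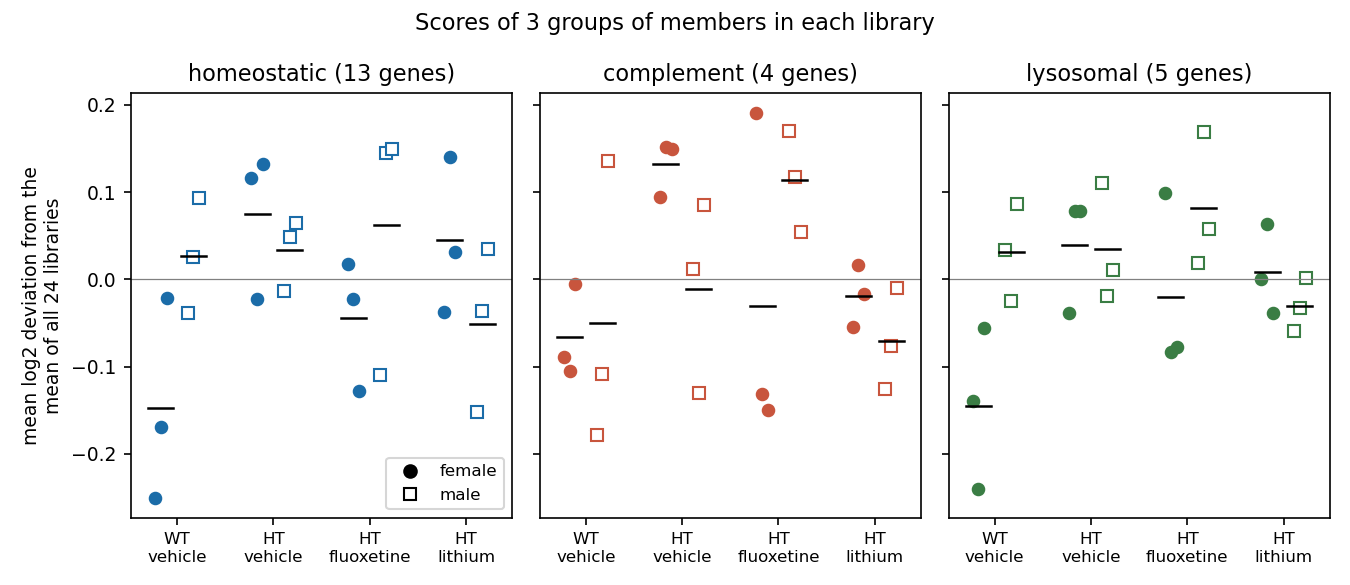
Mean log2 deviation of homeostatic, complement and lysosomal members in each library from the mean of all 24, by arm and sex (n = 3 each, bars are means). WT vehicle females have the lowest means for homeostatic (-0.147) and lysosomal genes (-0.145), and the drug arms overlap HT vehicle.

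Fluoxetine in HT mice is compared with vehicle in HT mice, and these HT vehicle libraries are the same ones as above. Of the 35 members 10 were higher and 25 lower, against 49.5% of all genes higher, with a median of -0.049. Limma called 0 members and 2 of 16825 genes (0.0119%), edgeR called 0 members and 2 genes, and DESeq2 0 members and 16 genes. At an unadjusted p under 0.05 were 2 members, P2ry6 and Ly86, against 5.71% of all genes. The median was -0.015 without HT fluoxetine male 1, -0.022 within the first batch and -0.026 without the bulb-high libraries. All 12 olfactory bulb genes stood higher with fluoxetine, with a median of 0.64, and so did 8 of 8 meningeal fibroblast genes (0.203). Of the striatal genes 0 of 11 were higher (-0.489), of choroid plexus genes 2 of 5 (-0.17) and of myelin genes 1 of 10 (-0.088). The part of these tissues in the members' values was not tested.

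P2ry6, the gene of a receptor that triggers phagocytosis when it binds UDP from damaged neurons, stood higher with fluoxetine. It stood at 49.6, 54.8 and 42.9 in HT vehicle females and 46.5, 42.9 and 56.7 in HT vehicle males. With fluoxetine it stood at 71.3, 68.5 and 60.4 in females and 74.1, 59.8 and 62.5 in males. Every fluoxetine library was above every HT vehicle library, as in 0.25% of all genes; within females alone this held for P2ry6 only, with 4.64% of all genes, and within males for P2ry6 and Trem2, with 2.23%. The difference was 0.43 ± 0.13 (limma, adjusted p = 0.555, and 0.28 to 1 over 27 settings, in which the difference ran from 0.38 to 0.49), 0.44 ± 0.18 in females and 0.42 ± 0.18 in males. WT vehicle libraries, at 50.9, 55.0 and 57.2 in females and 62.1, 52.4 and 43.9 in males, overlapped both. P2ry6 rests on few reads, and 12 of 12 genes of border-associated macrophages, which live in the meninges and around vessels, also stood higher with fluoxetine, with a median of 0.23. The score of those genes ran from -0.278 to 0.300 in HT vehicle and from -0.109 to 0.735 in HT fluoxetine, and the 2 with the smallest p were Lyve1 (0.60 ± 0.19, adjusted p = 0.606) and Ms4a6c (0.56 ± 0.24, adjusted p = 0.835). Their part in the P2ry6 difference was not tested. The slope of P2ry6 on the olfactory bulb score was 0.040 ± 0.029 in the first batch and -0.13 ± 0.050 in the second, neither called (adjusted p = 0.275 and 0.191).

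Ly86 with fluoxetine stood at 193, 166 and 195 in females and 173, 195 and 194 in males, and all 6 lay below the HT vehicle mean (-0.16 ± 0.069, limma, adjusted p = 0.82). Homeostatic genes had a median of -0.049 (3 of 13 higher), complement genes -0.013 (2 of 4) and lysosomal genes -0.025 (1 of 5, Cd68 at 0.11 ± 0.084). In females all 13 homeostatic and all 4 complement genes were lower with fluoxetine (medians of -0.131 and -0.153), and in males 8 of 13 and 4 of 4 were higher (0.039 and 0.12). The fluoxetine females were not alike. Homeostatic scores were 0.018, -0.022 and -0.128 in females 1, 2 and 3, against 0.116, -0.022 and 0.132 in HT vehicle females. Complement scores were 0.191, -0.131 and -0.150 against 0.095, 0.152 and 0.150. Fluoxetine female 1 is bulb-high, female 2 Ttr-high and female 3 in the second batch, and the part of this was not tested. The olfactory bulb genes also differed by sex, with 12 of 12 higher and a median of 1.05 in females against 8 of 12 and 0.080 in males, and their part was not tested. Over all members the medians were -0.123 in females and 0.040 in males. Every fluoxetine female lay below every HT vehicle female for P2ry13, Fcrls, C1qb, Laptm5 and Ly86 (5 members, with 4.17% of all genes), and in males for 0 members (2.22%). The sex difference was tested per gene: Fcrls gave 0.42 ± 0.11, C1qb 0.42 ± 0.18 and Laptm5 0.33 ± 0.14, none called by limma (adjusted p = 1). In this test 5 members had an unadjusted p under 0.05, with 1.07% of all genes, and 28 of 35 were above 0, with 47.7% of all genes.

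Lithium is compared with vehicle in HT mice as well, again against the same HT vehicle libraries. Here 6 of 35 members were higher, with 49.5% of all genes, and the median was -0.061. Limma called 0 members and 2 genes (0.0119%), edgeR 0 and 0, and DESeq2 0 members and 3 genes, and 2 members had an unadjusted p under 0.05, Ly86 and Ctss, with 2.75% of all genes. Every lithium library is in the second batch and every HT vehicle library in the first, so batch and lithium cannot be told apart but for 1 fluoxetine library. A fit with batch as a term, which rests on that library, turned the median to 0.098, with 26 of 35 higher. Leaving out the 6 bulb-high libraries gave a median of -0.034, with 13 of 35 higher. Of the markers of other tissue, 1 of 11 striatal genes (median -0.423), 0 of 5 choroid plexus genes (-0.147), 3 of 12 olfactory bulb genes (-0.172) and 9 of 10 myelin genes (0.11) stood higher with lithium, and their part in the members' difference was not tested.

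Ly86 with lithium stood at 176, 181 and 177 in females and 166, 169.9 and 185 in males, below every HT vehicle library (199, 218 and 209 and 197, 193 and 233), and 4 of the 6 fell within the WT range of 172 to 212, with HT lithium males 1 and 2 below it. The difference was -0.24 ± 0.069 (limma, adjusted p = 1) and stayed between -0.364 and -0.165 over 26 settings. Cx3cr1 was the other member without overlap, at 1237, 1304 and 1293 and 1118, 1271 and 1301 against 1336, 1339 and 1426 and 1388, 1329 and 1338 in HT vehicle (-0.12 ± 0.068), and its difference was 0.12 with the batch term. Genes with every lithium library below every HT vehicle library made up 0.0773% of all. Within females 4 members lay lower without overlap (Cx3cr1, C1qb, Ly86 and Adgre1, with 3.54% of all genes) and 0 higher (3.68%), and within males 5 lower (Cx3cr1, Ctss, Fcer1g, Inpp5d and Ly86, with 2.23%) and 0 higher (2.56%). Ctss stood at 1348, 1460.4 and 1384 and 1317, 1330.5 and 1348 with lithium and overlapped HT vehicle through 1 library, HT lithium female 2 (-0.12 ± 0.053).

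By group, homeostatic genes had a median of -0.061 with lithium (3 of 13 higher), complement genes -0.105 (0 of 4) and lysosomal genes -0.059 (2 of 5). C1qc, C1qb and C1qa had all 6 lithium libraries below the HT vehicle mean (-0.075 ± 0.078, -0.12 ± 0.088 and -0.095 ± 0.084). How many of all genes share this pattern was not counted. Over 26 settings, the batch term among them, C1qc ran from -0.125 to 0.191 and C1qa from -0.144 to 0.031, so their sign was not stable. C1qb ran from -0.138 to -0.024. Of the other microglial genes 3 of 36 stood higher, with a median of -0.11. The members' medians in females and males were -0.053 and -0.080, and no member passed the test of their difference (0% of all genes called) or had an unadjusted p under 0.05, as 1.63% of all genes did.

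The treated HT arms can also be set beside WT vehicle, in comparisons that share their libraries with those above. HT fluoxetine had 28 of 35 members higher than WT vehicle (49.2% of all genes), with a median of 0.059, and HT lithium 22 of 35 (47.5%), with a median of 0.038. In neither was a gene called by limma or edgeR (0%), and DESeq2 called 18 and 5 genes and 0 members. At an unadjusted p under 0.05 were 5 members with fluoxetine, with 4.38% of all genes, and 2 with lithium, with 2.56%. The smallest p with fluoxetine was that of C1qc, at 1379.6, 1056 and 1004 in females and 1308, 1328 and 1163 in males, where the 3 males and female 1 lay above every WT library and the other 2 females within the WT range (0.27 ± 0.078, limma, adjusted p = 0.669). In lithium against WT it was Csf3r, 129.6, 159 and 132 in females and 133, 142 and 132 in males (0.26 ± 0.11, limma, adjusted p = 1). Every WT vehicle library is in the first batch and every lithium library in the second, so batch and lithium cannot be told apart here either, but for 1 fluoxetine library. With the batch term the median of lithium against WT was 0.139, with 33 of 35 members higher. Every HT lithium female was above every WT female for 12 members, with 6.64% of all genes, and every HT lithium male below every WT male for 5, with 5.93%. Over all members the medians were 0.15 in females and -0.096 in males, and those of the bulb genes -2.18 and 0.44, whose part was not tested. Lithium against fluoxetine had 11 of 35 members higher (49% of all genes) with a median of -0.038, 0 members called and 4 genes (0.0238%), and P2ry6 at -0.26 ± 0.13. The direction was not stable: with the batch term 26 of 35 were higher (median 0.066), in females alone 27 of 35 (0.047), in males alone 6 of 35 (-0.110), and without the bulb-high libraries 17 of 35 (-0.007). No member had an unadjusted p under 0.05 there, with 5.59% of all genes.

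Males had 28 of 35 members higher than females in the mean of the 4 arms, with 48.5% of all genes, by a median of 0.038. The arms did not share this direction. The members' mean score was higher in males in WT vehicle and HT fluoxetine, and lower in males in HT vehicle and HT lithium. In HT lithium it was -0.035, 0.081 and -0.017 in females and -0.095, -0.045 and 0.007 in males. Trem2 had the smallest p at 0.11 ± 0.043, and was the 1 member with an unadjusted p under 0.05, with 2.59% of all genes. No member was called, with 14 genes (0.0832%) called in all. All 5 lysosomal and 11 of 13 homeostatic genes were on the male side, and 2 of 4 complement genes. Markers of other tissue differed alongside: 0 of 12 olfactory bulb genes (median -0.452) and 0 of 5 choroid plexus genes (-0.488) were higher in males, and 5 of 5 red blood cell genes stood higher (0.665), 1 of them called by limma (adjusted p = 0.00777). Their part in the members' difference was not tested.

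**Figure D4:**
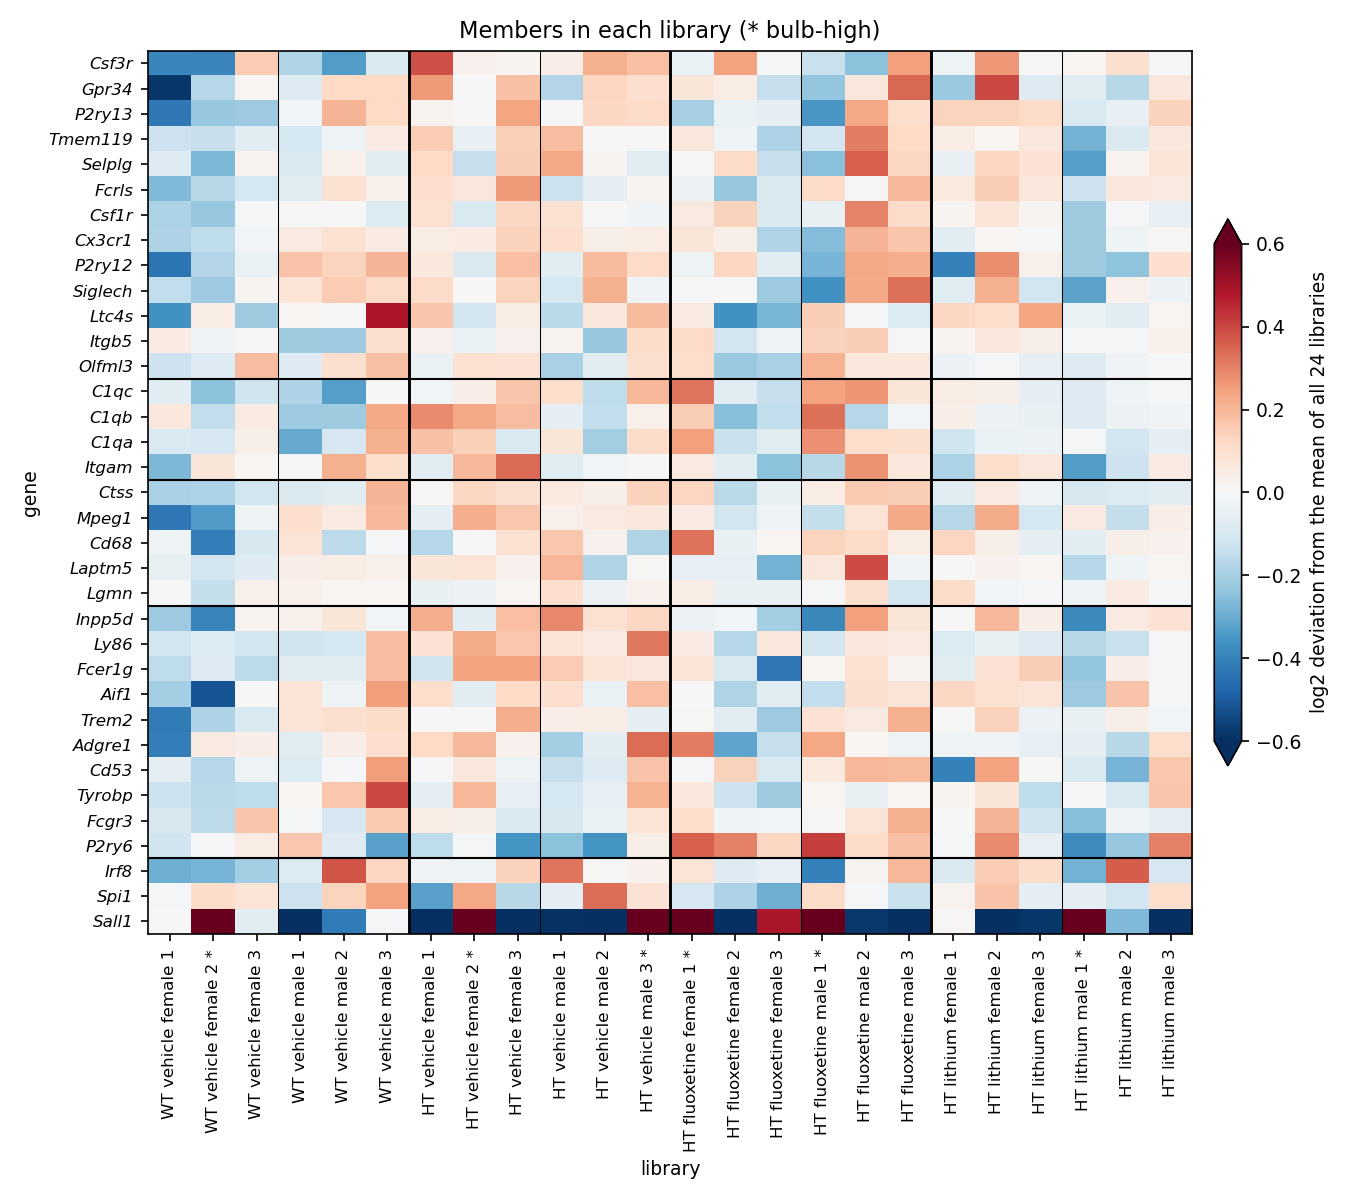
Log2 deviation of each member (rows, grouped, in the order of the genotype difference) from its mean over 24 libraries (columns, 3 per arm and sex; an asterisk marks bulb-high libraries), with colours cut at 0.6. WT vehicle female 1 is low across most rows, and Sall1 is high in the 6 bulb-high libraries, where Siglech and Inpp5d are low in HT fluoxetine male 1 and HT lithium male 1.

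Across libraries the members moved together in part. Over deviations from the 8 group means in 24 libraries, the median Pearson r between members was 0.235 over 595 pairs, against 0 between members and all other genes. These are descriptions: libraries share a dissection, a depth and a batch. The C1q genes lie side by side on chromosome 4 and their r was 0.78 for C1qa with C1qb, 0.64 for C1qb with C1qc and 0.59 for C1qa with C1qc. P2ry12 and P2ry13 had 0.68. Selplg, the selectin ligand gene, and Inpp5d were the closest pair at 0.955. Trem2 and its adaptor gene Tyrobp had 0.043. Lgmn, with a median r of 0.048 to the other members, and Sall1, with -0.13, followed the rest least. Of 13818 genes outside the list with a mean of at least 50, those most like the members' mean were Msn (r = 0.84, Spearman's rho = 0.82), Alpl (0.83 and 0.79), Pon2 (0.77 and 0.74), Cmtm6, Flvcr2, Eps8, Ets1, Selenon, Slc8b1 and Slco2b1, the last 7 at r of 0.72 to 0.76. None of these 10 is in a microglial or other cell list used here. That mean takes deviations unscaled, so Sall1, with an SD of 0.98 against a median of 0.15, weighs most. The part of Sall1 in this ranking was not tested.

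The olfactory bulb score was followed most by Sall1, which stood from 2281 to 3100 in the 6 bulb-high libraries and from 536 to 1442 in the other 18. In a limma fit with 8 group means and the score as a covariate, which was added after the values were seen, its slope was 0.48 ± 0.037 log2 units per unit of score (limma, adjusted p = 8.14e-09). It was 0.51 ± 0.035 within the first batch and 0.42 ± 0.079 within the second. Spi1 and Irf8, the other transcription factor genes, had slopes of 0.019 ± 0.023 and -0.034 ± 0.025. A slope was called in 53.6% of all genes, 26.6% positive and 27% negative, and in 8 of 35 members, a share below that background.

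Of the 13 homeostatic genes 10 had negative slopes over all libraries, of which 5 were called, with 27% of all genes called negative: Siglech, a sialic acid-binding lectin gene (-0.067 ± 0.017, limma, adjusted p = 0.00227), P2ry12 (-0.069 ± 0.019, 0.00406), Selplg (-0.065 ± 0.015, 0.0015), Csf1r (-0.036 ± 0.011, 0.00777) and Cx3cr1 (-0.034 ± 0.013, 0.032). Inpp5d had -0.066 ± 0.017 (adjusted p = 0.00302). P2ry12 shows the size: it stood at 961 and 810.1 in the bulb-high fluoxetine libraries and at 1075, 938, 1152 and 1142 in the other 4. The bulb-high male was the lowest and the bulb-high female fell within the others. Of the 4 complement genes 3 had positive slopes over all libraries. C1qa was called (0.041 ± 0.016, adjusted p = 0.0367), 1 of 4 being near the 26.6% of all genes called positive, and 0 of 4 were called without the 4 Drd2- or Ttr-high libraries. C1qb had 0.039 ± 0.017 (adjusted p = 0.0679). Lysosomal genes showed no called slope, from -0.017 ± 0.018 for Mpeg1 to 0.010 ± 0.012 for Ctss.

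Within the first batch 10 members were called, with 49.6% of all genes, and within the second Sall1 alone, with 3.17%. The C1qa slope was 0.060 ± 0.019 in the first batch (adjusted p = 0.0162) and -0.001 ± 0.022 in the second (adjusted p = 0.985), and in the 7 libraries of the second batch all 13 homeostatic and all 4 complement slopes were negative. Whether the groups of genes differ in slope was not tested. P2ry12 had -0.052 ± 0.020 and -0.11 ± 0.035, negative in both. Over all libraries, border-associated macrophage genes had 12 of 12 positive slopes, of which 6 were called, with 26.6% of all genes called positive. Other microglial genes had 18 positive slopes, 8 of them called, and 18 negative, 10 of them called, with 27% of all genes called negative. The part of other cells that express these genes in the slopes was not tested.

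**Figure D5:**
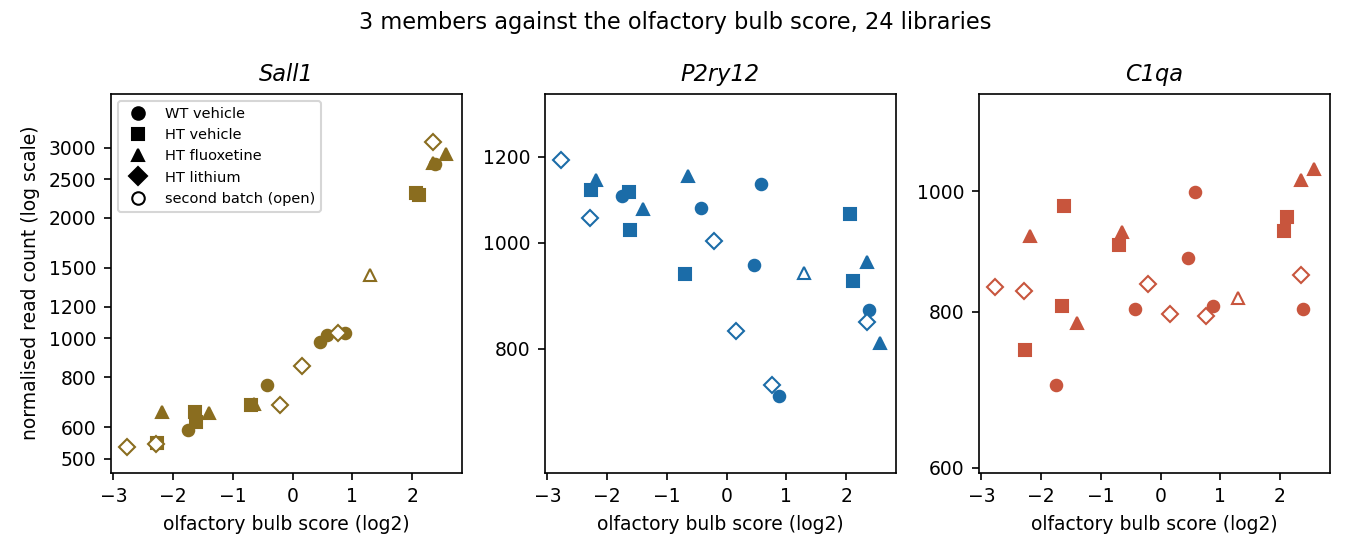
Normalised read count (log axis) of Sall1, P2ry12 and C1qa against the olfactory bulb score of each library (log2), by arm, with open symbols for the second batch. Sall1 rises from 536 to 3100, P2ry12 declines with the score, and the C1qa slope is positive in the closed symbols (0.060) and -0.001 in the open ones.

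Genes listed as marks of a changed microglial state gave no call in the 3 main comparisons. Of all genes, limma called 0% for genotype and 0.0119% for each drug, so an absent call says little about these lists. Of 22 disease-associated microglia genes 19 were tested, and none was called. In HT vehicle 11 were higher than in WT vehicle, and against HT vehicle 13 were higher with fluoxetine and 10 with lithium. The medians were 0.026, 0.026 and 0.001. These genes did follow the olfactory bulb score over all libraries, with positive slopes for 15 of the 19. Of the slopes 10 were called positive, with 26.6% of all genes, and 3 negative, with 27%. Some genes of this list stood far above every member, such as Fth1 at a mean of 36956 and Apoe at 33626, against 2998 for Lgmn. The part of other cells that express these genes was not tested, so the slopes do not show a microglial state. Itgax, the gene of an integrin of that state, was low at 8.07 ± 3.9 (SD, n = 6) in HT vehicle and 13.8 ± 5.25 in HT fluoxetine (0.84 ± 0.37, limma, adjusted p = 0.831). Of 12 inflammatory cytokine and chemokine genes 4 were tested, Nfkbia being the highest at 573, and none was called. Among 17 ligands and partners tested, Cx3cl1, the neuronal ligand of the receptor encoded by Cx3cr1, had the highest level at 21690, and again none was called. Of 14 genes of monocytes, neutrophils and lymphocytes 2 were tested, the higher of them, Ccr2, at 12.8, while red blood cell genes were present, with 5 of 5 tested and a highest mean of 2062.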

How the data were processed

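The deposited table holds, for each of 18240 genes in 24 libraries, a signal value that the authors made by dividing read counts by a size factor of the library; Salmon 0.11.2, R 3.6.0, DESeq2 1.19.11 and GRCm38 are named in the submitters' processing notes, without role or order, and the labels name a stranded mRNA kit. Whole reads could be recovered in every library within 0.01 of a whole number, from 24133344 to 35940460 per library. The strand setting of the counting is not given in the sources used here: exons of Csf1r, Cx3cr1, P2ry12 and Ltc4s overlap genes on the opposite strand.

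Values were tested as log2(value + 1) with limma 3.58.1 (trend) in R 4.3.3, for 16825 genes with a mean of at least 10 (1415 left out), over 8 group means with both sexes weighted equally, and p-values were adjusted by Benjamini-Hochberg over all 16825. Fold changes on this scale understate those of low genes. All 35 members were tested. On the recovered reads, DESeq2 1.42.0 and the quasi-likelihood test of edgeR 4.0.16 were alternatives, beside other pseudocounts and filters, a batch term, a replicate block, each sex alone and libraries left out. The test was checked on simulated counts of 16825 genes, where it made 7 false calls, and 0 with nothing changed. Scores are mean log2 deviations from the mean of 24 libraries. Levels per kilobase use the union of exons. The genes named were drawn from the members, Dyrk1a, the highest gene of each other microglial, macrophage and white blood cell list, the 2 genes with the smallest p of such a list in the 3 main comparisons, and the 10 genes most correlated with the members; not all of them are printed, and 1 is not reported here. The members and lists were chosen with earlier results of these data known. Python 3.11.15 with pandas 2.3.3, numpy 2.4.6 and matplotlib 3.10.9 was used for the rest.

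Replicate numbers did not pair the samples: of 36 pairs of libraries with the same number 12 had a correlation of deviations over 0.1. No 2 libraries of a group agreed within sampling noise (smallest chi-square per gene 5.35).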

Additional observations from a re-analysis of the deposited data

Results flagged for a closer look

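In 11 of 140 sets of 6 libraries the highest or lowest library stood apart by Dixon's criterion (a gap over 0.625 of the range), and chance flags about 1 in 20. The library labelled HT lithium male 1 was the lowest of its arm for the fractalkine receptor gene Cx3cr1 (1118, next 1237), for Fcrls (696.4, next 788.8) and for the lysosomal gene Laptm5 (821.4, next 907.8), and the highest for Sall1 (3100.0, next 1030.2). WT vehicle male 3 was the highest of its arm for Ctss (1623, next 1338), Fcer1g (166.3, next 139.8), Cd53 (218.6, next 182.9) and Ly86 (212.4, next 176.5). WT vehicle female 2, a bulb-high library, was lowest for Lgmn (2709, next 2999) and highest for Sall1 (2728, next 1028). HT vehicle female 3 was highest for Trem2 (405.9, next 360.6).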

How the results depend on the processing

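No member was called in any comparison between groups under any alternative run. Leaving out 1 library at a time moved the members' median log2 difference from 0.081 (without WT vehicle female 1) to 0.141 for HT against WT vehicle. For fluoxetine against HT vehicle it ran from -0.072 to -0.015 (without HT fluoxetine male 1), and for lithium from -0.079 to -0.046. For fluoxetine against WT it ran from 0.039 to 0.104, and for lithium against WT from 0.013 (without HT lithium female 2) to 0.06. For lithium against fluoxetine it ran from -0.072 to -0.013 (without HT lithium male 1). The median deviation of the members in a library had an SD of 0.065 between libraries of one arm and sex. By sex the medians were 0.207 in females and -0.004 in males for HT against WT vehicle, -0.123 and 0.04 for fluoxetine, 0.149 and -0.096 for lithium against WT and 0.047 and -0.11 for lithium against fluoxetine. With a batch term, which rests on 1 fluoxetine library, the medians were 0.098 for lithium against HT vehicle, 0.139 against WT and 0.066 against fluoxetine; the cause was not tested. Without the 6 bulb-high libraries they were -0.034 for lithium against HT vehicle and -0.007 against fluoxetine. With the replicate block the genotype median was 0.109 and no call on a member changed, the numbers not pairing the samples (r from -0.695 to 0.724); genes called fell from 2 to 0 for each drug against HT vehicle. DESeq2 called 16 genes with fluoxetine, 18 for fluoxetine against WT, 5 for lithium against WT and 30 for lithium against fluoxetine, where limma called 2, 0, 0 and 4; the bulb score as a covariate gave 5 genes for genotype, 8 for fluoxetine against WT and 16 for lithium against fluoxetine, where limma without it gave 0, 0 and 4. The C1qa slope on the bulb score was -0.001 in the second batch (limma, adjusted p = 0.985), and without the 4 Drd2- or Ttr-high libraries 0.043 (limma, adjusted p = 0.0515), alternatives chosen after seeing the data. With 6 libraries an arm, differences of 1.5-fold can be missed, and smaller ones more often.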
